A study of Mus musculus with 2 samples.

Results

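The genes described here are 35 that mark the non-blood cells of bone marrow or build the matrix around them: 8 endothelial genes, 10 mesenchymal or niche genes and 17 matrix genes. They were chosen with earlier results of these data known, among them results for the same contrast, and were read on every probe set whose platform annotation names that gene alone. Probe sets were found for 34 of the 35 members, 71 in all, out of 18193 named genes and 45037 probe sets. Spp1, the osteopontin gene, was not analysed here.

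Expression was measured in hematopoietic stem cells (HSC), which reside in bone marrow and renew the blood, from mice aged 3 months. There were 2 Affymetrix arrays, 1 of cells labelled Sirt6 knockout and 1 of cells labelled wild type. Sirt6 is a nuclear deacylase of histones. The sources used here do not give the sorting gate, the number of animals pooled, the strain or the Sirt6 allele. The Sirt6 probe set read 174 on the array labelled knockout against 124 in wild type, so it was not lower where the label says knockout, and which part of the transcript it covers relative to a deletion is not known here. Every direction below therefore rests on the label. With 1 array for each genotype there is no replicate error and no test, and each ratio compares these 2 RNA samples only.

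Bone marrow HSC lie beside sinusoidal endothelium and reticular stromal cells that carry the leptin receptor, which secrete stem cell factor and other ligands. The matrix around them holds fibrillar collagens in bone and connective tissue, type IV collagen and nidogen in the basement membrane of vessels, and small proteoglycans that bind collagen. HSC share several genes with endothelium, to which they are related by development, among them those of endomucin, endoglin and Robo4. In a bulk RNA sample, fewer cells of a type and less RNA per cell cannot be told apart.

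The deposited values are MAS5 signals, in arbitrary units. A floor was set at the median signal of all probe sets, 60.5, and a gene was called measured when its brightest probe set lay above the floor on at least 1 array. A ratio in which the dimmer value was under the floor was computed against the floor and is written "at least". Ratios are of the array labelled knockout over wild type. The floor was passed by 22 of the 34 genes, by 16 on both arrays and by 6 in wild type only, and 12 stayed under it throughout. Among all 11547 measured genes, 283 passed it in wild type only and 433 only in the sample labelled knockout. A gene that is measured only through the array where it is bright must come out different there, so the counts below describe the genes and support nothing by themselves.

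Signal was lower by 1.5-fold or more in the knockout sample for 8 of the 22 measured genes and higher by as much for 3, while 2.63% of all measured genes were that much lower and 1.71% that much higher. At 2-fold, 6 were lower and 0 higher, beside 0.572% and 0.398% of all. With the floor at percentile 75 of all probe sets, which left 6 genes, Bgn was lower and Pdgfrb higher by 1.5-fold and the others were between. The lower genes were Emcn, Gas6, Fhl1, Plpp3, Bgn, Sparc, Col1a2 and Fstl1, and the higher ones Pecam1, Pdgfrb and Fn1. The share of lower genes lay above the background, but the genes were chosen with this contrast known and nothing is read from it. Over the 34 genes with a probe set, without any floor, the median log2 ratio was -0.13 and 21 ratios were negative, beside a median of 0.03 and 8047 negative ratios over all 18193 named genes.

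The promoters of 4 of the lower genes, the 250 bases before the start site, are shown because these genes had the largest unfloored ratios of their roles (2 of them among matrix genes). They are from RefSeq (GRCm38.p6), read 5′ to 3′ on the gene's strand, and 26 of the 35 genes have an entry. Capitals mark matches, on either strand, to 7 short motifs. They are the TATA box (letters TATAAA), the CCAAT box (letters CCAAT), the GC box (letters GGGCGG), the GATA motif (letters AGATAA), the ETS motif (letters CAGGAAG), an E-box (letters CAGGTG) and the RUNX motif (letters TGTGGT), and no 2 different motifs overlap in the windows shown.
Emcn, chr3:137340828-137341077, plus strand: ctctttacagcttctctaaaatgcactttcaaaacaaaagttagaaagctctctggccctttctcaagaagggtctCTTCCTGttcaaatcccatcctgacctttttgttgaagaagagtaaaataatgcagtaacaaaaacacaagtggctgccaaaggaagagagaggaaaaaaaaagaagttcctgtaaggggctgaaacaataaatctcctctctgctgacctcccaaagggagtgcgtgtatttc
Plpp3, chr4:105157097-105157346, plus strand: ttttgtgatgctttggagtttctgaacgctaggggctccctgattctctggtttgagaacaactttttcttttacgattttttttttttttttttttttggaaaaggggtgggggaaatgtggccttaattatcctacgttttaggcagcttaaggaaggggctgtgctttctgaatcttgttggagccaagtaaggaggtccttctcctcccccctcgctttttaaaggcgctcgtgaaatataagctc
Bgn, chrX:73483351-73483600, plus strand: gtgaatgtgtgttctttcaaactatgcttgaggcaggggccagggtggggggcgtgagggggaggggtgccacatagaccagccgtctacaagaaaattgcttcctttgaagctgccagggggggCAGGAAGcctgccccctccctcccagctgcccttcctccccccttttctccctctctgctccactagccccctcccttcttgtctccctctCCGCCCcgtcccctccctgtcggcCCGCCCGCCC
Fstl1, chr16:37776805-37777054, plus strand: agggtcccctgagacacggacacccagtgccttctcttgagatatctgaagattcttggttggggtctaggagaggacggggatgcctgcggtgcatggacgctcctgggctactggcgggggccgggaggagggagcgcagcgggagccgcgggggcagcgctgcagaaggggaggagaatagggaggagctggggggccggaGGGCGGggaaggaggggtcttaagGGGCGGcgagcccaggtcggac
The Emcn promoter is 40.8% G and C with 1 CpG, and that of Plpp3 is 42.4% with 6, whereas the promoters of Bgn (64.4%, 7 CpGs) and Fstl1 (68% G and C, 16 CpGs) are rich in both bases. The median over the first listed promoter of 27025 genes was 52% with 6 CpGs. The Fstl1 window holds 2 GC boxes and that of Bgn 3, of which 2 overlap. A GC box lies in 12 of the 26 members' first listed promoters and in 32.9% of all promoters. An ETS match lies in those of Emcn and Bgn, in 4 of the 26 and in 10.5% of all. No match to any of the 7 motifs lies in the Plpp3 window. The GATA letters lie in 0 of the 26 and in 10.3% of all promoters. These are matches of letters, not known binding sites.

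Among the endothelial genes, a single gene was far lower and a single gene higher on the array labelled knockout, while 4 genes were nearly equal and 2 were under the floor. Emcn, which encodes endomucin, a sialomucin of venous and sinusoidal endothelium that is also carried by HSC, read 62.5 in the sample labelled knockout and 176 in wild type, 2.82-fold lower. Both values were above the floor, the lower one just so. Among the 1000 probe sets of any gene nearest in mean signal, the central 95% of log2 ratios ran from -1.05 to 0.61, and that of Emcn was -1.50. Pecam1, an adhesion molecule of endothelium, platelets and many leukocytes, read 214 against 133 in wild type, 1.61-fold higher (log2 0.69, beside a central 95% from -0.83 to 0.53). Each of these genes rests on 1 probe set.

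The other measured endothelial genes were close on both arrays. Kdr, the main receptor of vascular endothelial growth factor, read 107 against 119 in wild type. Flt1, another receptor of that factor, read 75.8 against 74.9, and its 3 further probe sets were under the floor. Eng, the Tgf-beta co-receptor endoglin, read 322 against 348, and its second probe set 244 against 294. Robo4, a guidance receptor of endothelium and HSC, read 245 against 255. The log2 ratios of these 4 genes ran from -0.15 to 0.02 on their brightest probe sets. Cdh5, the cadherin of endothelial junctions, read 27.3 against 21.7 on its brighter probe set and 15.9 against 26.3 on the other, and Cav1, the caveolin of endothelial membrane pits, 16.2 against 13.3. All of these values were under the floor, where the ratio is not read.

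**Figure D1:**
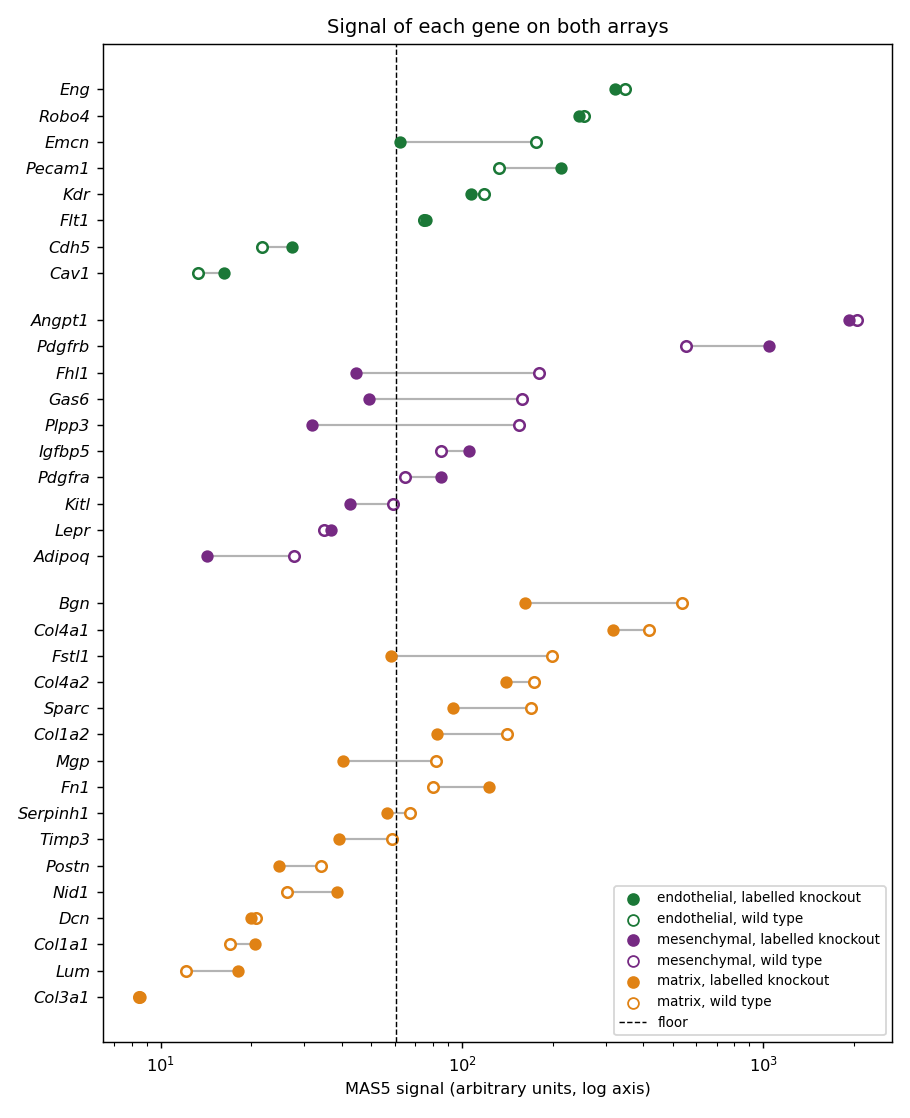
MAS5 signal (log axis) of the brightest probe set of each of the 34 genes on the array labelled knockout (filled) and the wild-type array (open), grouped by role and ordered by wild-type signal, with 1 array for each genotype and no error bar. The dashed line is the floor at 60.5, and the 12 genes with both symbols left of it were not read.

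Among the mesenchymal and niche genes, Plpp3, Fhl1 and Gas6 lay well above the floor in wild type and under it on the array labelled knockout, while Pdgfrb was higher. Plpp3, a phosphatase of lysophosphatidic acid and other lipid phosphates, read 31.7 against 154 in wild type, at least 2.55-fold lower, and its second probe set, under the floor on both arrays, read 27.1 against 51.9. Fhl1, a LIM domain protein of muscle that is also expressed in HSC, read 44.3 against 180, at least 2.98-fold lower. Its second probe set read 48.7 against 32.9, under the floor in both samples. Gas6, a ligand of the TAM receptor kinases, read 49.2 against 158, at least 2.61-fold lower, and its second probe set gave 31.6 against 30.4, under the floor. Each of the 3 bounds thus rests on 1 probe set. The unfloored log2 ratios were -2.29, -2.02 and -1.68, all outside the central 95% of the probe sets nearest in signal, whose lowest lower limit was -1.03.

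Pdgfrb, the receptor of platelet-derived growth factor on pericytes and stromal cells, read 1049 against 556 in wild type, 1.89-fold higher. Its second probe set read 157 against 101, a log2 ratio of 0.63 beside 0.92 for the first. Pdgfra, its partner receptor on mesenchymal progenitors, read 84.9 against 64.9 on its brightest probe set (log2 0.39), and its other probe sets were under the floor. Pdgfra lies on the chromosome next to Kit and near Kdr. Kit, the receptor of stem cell factor, read 1746 against 1709 and so was nearly equal, as Kdr was.

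Angpt1, the ligand of the Tek receptor made by HSC and stroma, read 1920 against 2041 in wild type on its brighter probe set, and on the other 83.3 against 123. Their log2 ratios were -0.09 and -0.56, so the brighter one was close and the dimmer one lower. Tek itself read 135 against 210, 1.55-fold lower. Igfbp5, a binding protein of insulin-like growth factors, could not be given a direction: its brightest probe set read 105 against 85.0, and the other, whose suffix _s_at marks probes that may match related transcripts, 13.3 against 69.1. Their log2 ratios were 0.31 and -2.38.

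Of the 10 mesenchymal genes, Lepr, Adipoq and Kitl were under the floor on both arrays. Lepr, the leptin receptor, read between 5.67 and 36.7 on its 4 probe sets over both arrays. Adipoq, the adiponectin gene used to trace these cells, read 14.3 against 27.6 in wild type. Kitl, which encodes stem cell factor, reached 58.8 in wild type and 42.5 on the array labelled knockout on the brightest of its 4 probe sets, and was the mesenchymal gene nearest to the floor among those not measured.

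Among the measured matrix genes, Bgn and Fstl1 differed most. Bgn, the gene of the small proteoglycan biglycan, read 162 against 538 in wild type, 3.32-fold lower. Its other probe sets read 58.0 against 147 and 57.5 against 119, so that all 3 were lower, with log2 ratios of -1.73, -1.34 and -1.05. Fstl1, a secreted glycoprotein related to follistatin, read 58.0 against 199, at least 3.30-fold lower, and its second probe set 38.8 against 110. Bgn and Fstl1 were the members whose probe sets were at least 2 in number, all above the floor on 1 or both arrays, and all more than 2-fold lower as deposited, without the floor. Against the floor the dimmer ones are smaller bounds.

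Sparc, a collagen-binding glycoprotein of bone and vessels, was lower on its brighter probe sets and higher on its dimmest. It read 93.4 against 170 in wild type (1.81-fold lower) and 70.1 against 168 (2.40-fold), and then 71.7 against 51.7, the only probe set of all 71 that lay above the floor on the array labelled knockout alone. The log2 ratio of the brightest, -0.860, lay just inside the central 95% of probe sets near it in signal, which began at -0.874. That of the second, -1.26, lay outside, with a lower limit of -1.04. Mgp, an inhibitor of calcification, read 40.3 against 82.1, at least 1.36-fold lower, and thus fell short of 1.5-fold because the floor limits it. Its unfloored log2 ratio, -1.03, lay outside the central 95% of probe sets near it in signal, which began at -0.80. Fn1, the fibronectin gene, was the single matrix gene that was higher, at 123 against 79.8 (1.55-fold, log2 0.63). Its other probe set was under the floor and read 6.01 against 11.8. The ratio of Fn1 lay just past the upper limit of the central 95% of probe sets near it in signal, 0.61.

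Among collagens, the fibrillar and basement membrane types differed in how far they could be read. Col1a1 and Col3a1, chains of the main fibrillar collagens of bone and connective tissue, read at most 20.6 and 9.63 on any probe set and array. Col1a2, the other chain of type I collagen, read 82.7 against 141 in wild type on its brightest probe set, 1.71-fold lower, with a log2 ratio of -0.77 inside the central 95% of probe sets near it, which began at -1.05. The other 2 probe sets of Col1a2 read at most 18.9. The partner chains of type I collagen were thus not both measured. Serpinh1, the collagen chaperone of the endoplasmic reticulum, read 56.5 against 67.5, at least 1.12-fold lower.

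Col4a1 and Col4a2, which encode the partner chains of basement membrane type IV collagen, were above the floor on both arrays and had nearly the same ratio. Col4a1 read 318 against 417 in wild type and, on its second probe set, 188 against 232, and Col4a2 read 140 against 173. The log2 ratios were -0.39, -0.30 and -0.30, all under 1.5-fold and inside the central 95% of probe sets near them. The genes lie head to head, and the stretch from 1 listed start site to the other is shown because the pair shares it. It is chr8:11312805-11312826 in GRCm38.p6, 22 bases on the plus strand, and the RefSeq start site of Col4a2 is its first base and that of Col4a1, on the minus strand, its last, so that the listed transcripts overlap there.
Col4a1 and Col4a2, shared stretch: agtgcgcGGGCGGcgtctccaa
The capitals mark a GC box match. A CCAAT match lies in the first listed promoters of both genes, in 9 of the 26 members with an entry and in 34.5% of all promoters.

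The remaining matrix genes were too dim to read. Nid1, the nidogen that links laminin to type IV collagen, read at most 38.5 on 3 probe sets. Dcn and Lum, neighbouring genes of the collagen-binding proteoglycans decorin and lumican, read at most 20.7 and 18.1. Postn, the periostin gene, read 24.8 against 34.2. Timp3, a tissue inhibitor of metalloproteinases, came nearest to the floor at 58.8 in wild type against 39.0, and its 4 probe sets went both ways, with log2 ratios of -0.59, -0.48, 0.57 and -0.57.

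**Figure D2:**
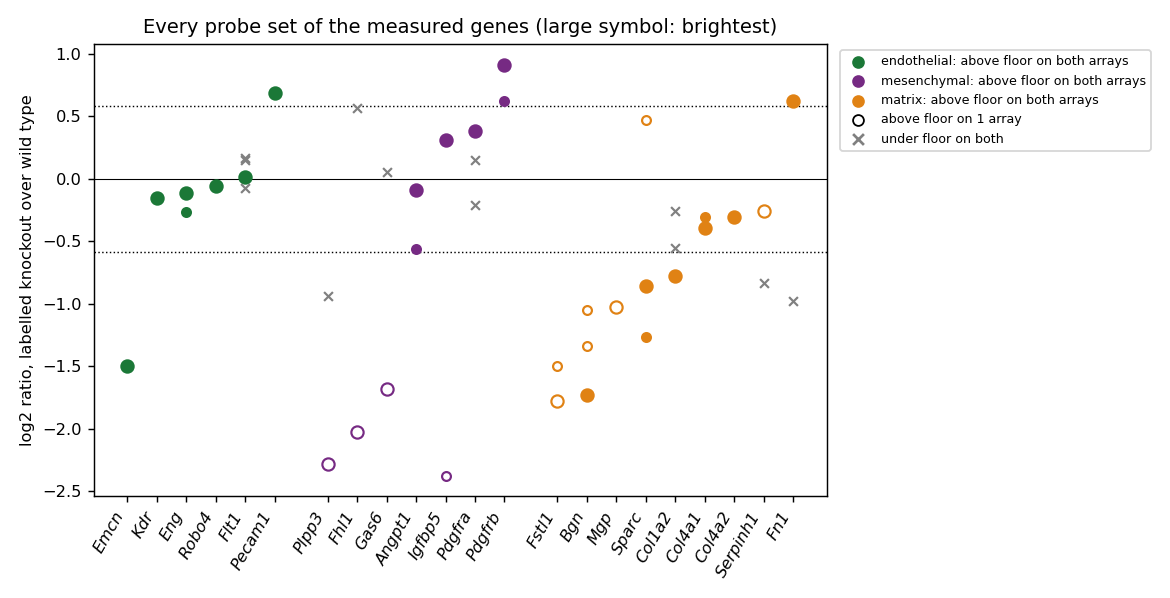
Log2 ratio, labelled knockout over wild type without a floor, of every probe set of the 22 measured genes, 1 column for each gene, with large symbols for the brightest probe set; filled symbols are above the floor on both arrays, open ones on 1 array and crosses on neither. The dotted lines mark 1.5-fold, and the 3 probe sets of Bgn and both of Fstl1 lie below the lower one, while those of Igfbp5 and Sparc lie on both sides of 0.

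Over all 71 probe sets of these genes, 39 were under the floor in both samples, 21 above it in both, 10 in wild type only and 1 in the knockout sample only. Of the 21 above the floor on both arrays, 14 had a negative ratio and 7 a positive one. By role, the negative ones were 5 of 7 endothelial, 2 of 6 mesenchymal and 7 of 8 matrix probe sets, beside 51.9% of the 21544 of any gene or none that passed it in both samples. The 4 positive mesenchymal ones were both of Pdgfrb and 1 each of Pdgfra and Igfbp5. Probe sets of 1 gene were counted separately, and the genes were chosen with this contrast known, so nothing is read from these shares. Log2 ratios of different probe sets for 1 gene had an SD of 0.22, over 4632 genes with at least 2 of them above the floor in both samples. All come from the same 2 arrays and dimmer probe sets are left out. This SD therefore holds no error shared by an array and is not the error of a ratio.

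**Figure D3:**
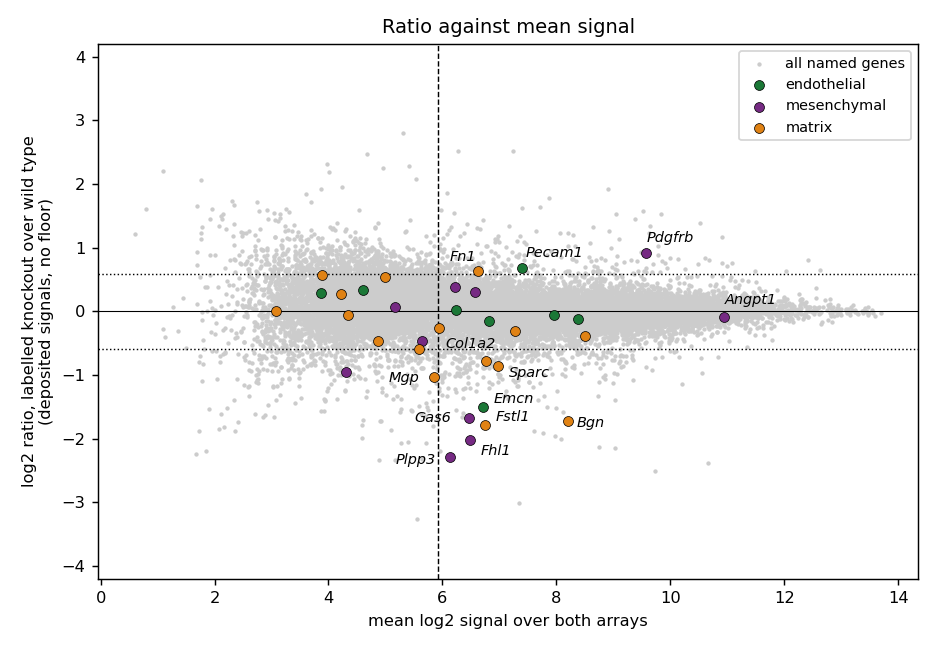
Log2 ratio (labelled knockout over wild type, no floor) against the mean log2 signal over both arrays for all 18193 named genes (grey) and the 34 genes with a probe set (coloured by role), each on its brightest probe set. The dashed line is the floor at log2 5.92 and the dotted lines mark 1.5-fold. Emcn, Gas6, Fstl1, Fhl1, Plpp3, Bgn and Mgp lie below most genes of like signal, and Pdgfrb, Pecam1 and Fn1 above them.

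Other genes of the same cells and structures, from lists written with earlier results of these data known and without the 35 genes above, were read the same way. Of all measured genes, 2.63% were lower and 1.71% higher by 1.5-fold or more, the shares to set beside the counts of these lists. Nothing is read from those counts. Of 40 other endothelial genes, 23 were measured, of which 4 had a signal lower by 1.5-fold or more and 0 a higher one. They were Mmrn1, a multimerin (105 against 237 in wild type), Vwf, the von Willebrand factor (77.5 against 141), Esam, an adhesion molecule of tight junctions (424 against 724), and Tek. All 4 are also expressed in HSC or megakaryocytes, and the part of these cells in the ratios was not tested. Tal1 and Cd34 of the same list, expressed there too, were not past 1.5-fold. Tal1 read 1620 against 1821 in wild type and Cd34 2846 against 2566, and these 2 genes were named after their values were seen. Tie1, the partner receptor of Tek, read 208 against 215, and Plvap, which marks fenestrated and sinusoidal endothelium, 75.1 against 79.0; both were named after their values were seen.

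Of 35 other mesenchymal genes, 18 were measured, and 4 were lower and 2 higher by that size. Cxcl12, the chemokine that holds HSC in marrow, read 57.4 against 461 in wild type, at least 7.63-fold lower. The imprinted RNA Meg3 read 248 against 1098, although its 8 measured probe sets had log2 ratios from -2.16 to 0.09. The transglutaminase gene Tgm2 read 205 against 899, and Lpl, the lipoprotein lipase named after its value was seen, 44.5 against 130, at least a log2 ratio of -1.10. The higher genes were Cebpa, a myeloid transcription factor also used by fat cells (412 against 176), and Thy1, a surface protein of stroma and lymphocytes (223 against 119), the latter also named after its value was seen. Ebf3 and Foxc1, which maintain the reticular stromal cells, did not reach the floor and were named after their values were seen.

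Of 47 other matrix genes, 20 were measured, with 1 at least 1.5-fold higher and 1 lower, and a median log2 ratio of 0.12, beside -0.44 for the 9 measured matrix members. The latter median is the bound of Mgp, and 3 of the 9 passed the floor in wild type only. Since the members were chosen with this contrast known, nothing is read from the gap. Emilin2 read 1542 against 969 in wild type and Col16a1 132 against 208. Tgfbi (log2 -0.58) and Col6a3 (-0.52) fell just short. Of 35 enzymes and inhibitors of the matrix, 17 were measured and Mmp9, the gelatinase of neutrophils, was the 1 past 1.5-fold (142 against 91.8), followed by Mmp2 (log2 0.53), Plod3 (0.40) and Bmp1 (-0.29).

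Receptors of these ligands and matrix proteins were mostly close on both arrays. Of 33 listed, 25 were measured, with 1 higher and 2 lower by 1.5-fold and a median of 0.07 (log2). Itga2b, the platelet integrin chain also carried by early progenitors, read 1205 against 653 in wild type, Sdc1, the heparan sulfate proteoglycan syndecan, 91.1 against 182, and Tek was the other lower one. The 3 measured probe sets of Sdc1 had log2 ratios from -0.999 to -0.185. Itgb7, an integrin chain of leukocytes, had a log2 ratio of 0.53. Of the Gas6 receptors, Mertk and Tyro3 did not reach the floor, and Axl read 45.3 against 61.1. The Cxcl12 receptor Cxcr4 read 973 against 844, and the fibronectin receptor chains Itga5 and Itgb1 261 against 245 and 390 against 359.

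Marker lists of blood cells differed too, and their counts stand beside 2.63% lower and 1.71% higher of all measured genes. All 19 HSC markers with a probe set were measured, and 10 were lower and 0 higher by 1.5-fold or more (median -0.63 on the log2 scale), led by Ndn, Fhl1, Fgd5 and Mllt3. This list includes the members Fhl1 and Robo4, Esam, Vwf, Tal1 and Cd34 of the other endothelial genes, and Kit of the receptors. Vwf is a megakaryocyte marker as well, so the lists are not separate observations. Of 13 measured granulocyte markers, 11 were higher and 0 lower by that size (median 0.76), led by Lcn2, Ms4a3, Chil3 and Ngp. Among 12 measured monocyte markers, 1 was higher (F13a1) and 0 lower by that size; Itgam (log2 0.46), Csf1r (0.45) and C1qc (-0.38) were between. Of 8 measured B cell markers, 4 were higher, led by Vpreb1, Igll1 and Blnk, and 1 lower (Ighm). Ighm was 5.21-fold lower on its brightest probe set, and its 8 measured probe sets had log2 ratios from -2.38 to -0.04. In the T and NK cell list, 2 of 5 measured genes were higher (Thy1 and Gzmb), followed by Il7r (0.53) and Cd8a (0.22). Cd3d, Cd3e, Cd3g, Cd4, Cd8b1 and Ncr1 of that list were too dim to be measured in either sample. Without a floor, the median log2 ratio of its 11 genes with a probe set was 0.17. Erythroid markers (8 measured) had 1 higher (Tfrc) and 2 lower (Car1 and Aqp1), and Car2 had a log2 ratio of -0.36. Megakaryocyte markers (6 measured) had 1 higher (Itga2b) and 3 lower (Vwf, Pf4 and Rab27b). By its median the HSC list was thus lower, with 9 of its 19 measured genes between. Of the 22 measured members, 8 were lower and 3 higher. The medians over measured genes alone were 0.76, 0.70, 0.53 and 0.22 for the granulocyte, B cell, T and NK cell and monocyte lists. They were -0.14 and -0.23 for the erythroid and megakaryocyte lists. The part of these lists in the ratios was not tested. Of the 8 endothelial genes 6 were measured (Pecam1, Emcn, Kdr, Flt1, Eng and Robo4, but not Cdh5 and Cav1), and of the 10 mesenchymal genes 7 (not Lepr, Adipoq and Kitl).

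Bgn and Fhl1 lie on the X chromosome, and sex-linked genes also differed between the arrays. On their brightest probe sets, the Y-linked genes Eif2s3y, Uty and Kdm5d read 316, 78.0 and 179 on the array labelled knockout. They read 645, 144 and 290 in wild type. Xist, which silences 1 X chromosome in females, had probe sets with log2 ratios of 0.63, 1.98 and -0.83. Its brightest read 5224 against 3365 in wild type, so Xist and these Y-linked genes were above the floor on both arrays. Their part in the values of Bgn and Fhl1 was not tested.

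**Figure D4:**
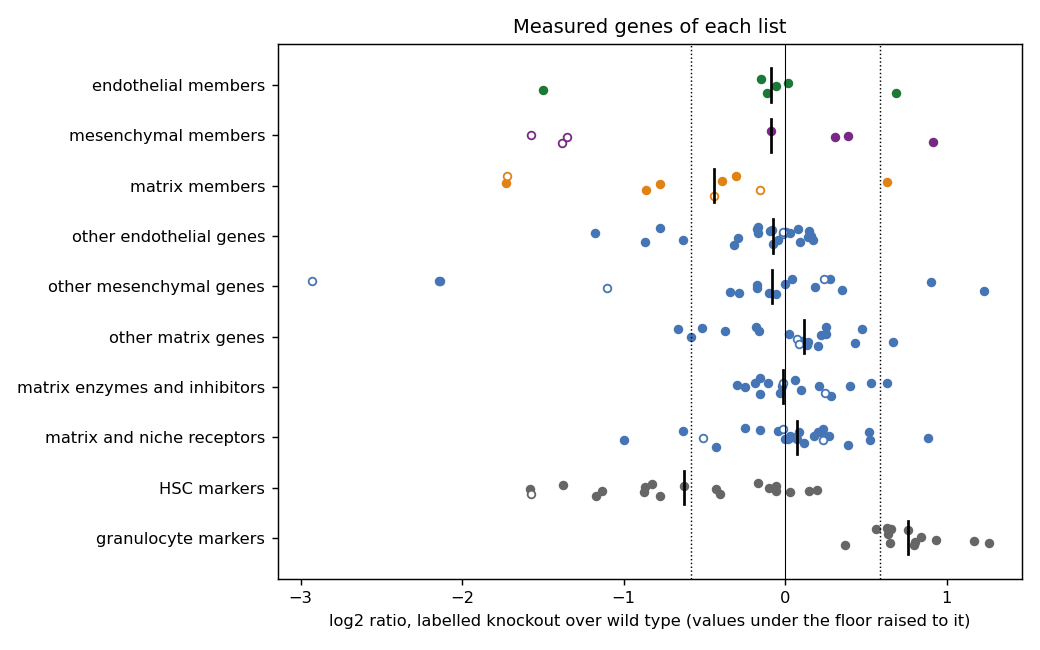
Log2 ratio, labelled knockout over wild type with values under the floor raised to it, of each measured gene of the 3 groups of members, the 5 other lists (without the members) and the HSC and granulocyte markers; points are genes on their brightest probe set, open points are bounds, black bars the list medians and dotted lines 1.5-fold. The HSC median is -0.63 and the granulocyte median 0.76, and the medians of the 5 other lists lie between -0.08 and 0.12.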

How the data were processed

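One array was hybridised for each genotype. The authors deposited linear signal intensities, 1 per probe set, with MAS5 named per the submitters' processing notes; MAS5 summarises and scales each array by itself. The sources used here give no scaling target, version or detection call. The medians were 60.7 (labelled knockout) and 60.8 (wild type), so no further scaling was applied before taking log2.

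Of 45037 probe sets, 34945 named 1 gene, 932 several and 9160 none; only the first were given a name, and 34741 matched a RefSeq record, which changed 0 symbols. A gene was read on its brightest probe set, by the mean log2 signal. The floor was the median over probe sets of the mean log2 signal. With 1 array per group no p-value or SD between genotypes was computed, and the number of arrays limits the precision. All 35 members were named, and of each other list the up to 4 measured genes with the largest absolute ratio. Genes outside this rule are marked, apart from Sirt6, Cxcr4, the sex-linked genes, the dim T and NK cell markers, and partners or neighbours of members. The members and lists were chosen with earlier results of these data known. The tools were pandas 2.3.3 and numpy 2.4.6 under Python 3.11.15, statsmodels 0.14.6 (loess, span 0.3) and, for figures, matplotlib 3.10.9; the gene summary was tested on simulated data.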

Additional observations from a re-analysis of the deposited data

How the results depend on the processing

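Of 197 recomputed log2 ratios of measured members, 175 moved by less than the SD of 0.22 between probe sets, 22 moved by more and 0 of those past 1.5-fold changed sign. Many of the 175 could not move, so their number is no measure of stability. A lower floor leaves genes above it on both arrays unchanged, and the filter on the mean changes only which genes are measured. Genes that a setting dropped are not counted. Scaling (quantile, median centring, loess) and reading the median over probe sets moved none of the counts of genes past 1.5-fold by over 1.5 times, nor did requiring the mean over both arrays above the floor, chosen after seeing the data. With the floor at percentile 75, 6 members were left, with 1 lower (Bgn) and 1 higher (Pdgfrb): 0 endothelial genes lower and 0 higher, 0 mesenchymal lower, and 1 matrix gene lower and 0 higher. The 5 other lists together had 10 lower and 5 higher genes, which became 4 and 3 at that floor, 16 and 17 with no floor, and 11 higher with the floor at percentile 25. Without probe sets ending in _x_at, _s_at or _a_at, 0 endothelial genes were lower and 0 higher, since Emcn and Pecam1 have no other. On the scale of log2(signal + 1 floor), 1 member was higher (0 endothelial, 0 matrix) and 2 matrix genes lower. At 2-fold, 0 members were higher (0 endothelial, 0 mesenchymal, 0 matrix) and 2 matrix genes lower, and the other lists had 5 lower and 1 higher. The split of all measured genes was 304 lower and 198 higher as reported, 265 and 233 after quantile normalization, and 693 and 986 with no floor. No paired analysis was possible because each genotype has 1 array. Ratios near or under the floor are limited by signal over background.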
